A study of Mus musculus with 4 samples.

Results

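Nppa, Myl4 and Myl7 are 3 genes of atrial heart muscle that were read in lung RNA of mice challenged with ovalbumin. The array carried 1 probe annotated to each of them alone, so 3 of 20205 probes are described, and each had a value on all 4 arrays. The genes were chosen on their log2 ratios in these same arrays, where they lay among the lowest in UCP air. Their ratios in either air, and the gap between the airs, are therefore given as a description with no test. Myl7 and Myl4 lie on chromosome 11 and Nppa on chromosome 4 of the mouse.

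The study set challenged lungs of the inbred mouse strain BALB/cJ against control lungs on dual-colour arrays. The first group was ovalbumin-sensitized and ovalbumin-challenged lung of animals in UCP air (UCP is not spelled out in the labels), read against lung of non-sensitized animals in UCP air. The second group was ovalbumin-sensitized and ovalbumin-challenged lung in particle-free air, read against lung of non-sensitized animals in particle-free air. Each air had 2 arrays of opposite dye orientation (challenged lung labelled Cy5 on array 1, Cy3 on array 2), and the control RNA was a pool from 6 animals. Sensitization and challenge come together in the challenged lung, and the ages of the animals are not used here. Whether the pair of arrays in each air came from different mice is not stated in the labels, so their spread may be technical, and a feature of a control pool would appear on both arrays that use it. All values are log2 ratios of challenged lung over control pool, where -1 is a halving. The direction common to all arrays was worked out from the values and is likely, not certain: 7 genes that allergic inflammation is known to raise in mouse lung had a median of 3.61 in UCP air and of 2.64 in particle-free air, and these 7 are no finding on direction. A ratio holds no absolute level, so neither the lung label nor the presence of heart muscle could be checked against a level of marker genes. For the same reason, a low ratio does not say whether the challenged lung held little of a transcript or its control pool held much of it.

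Nppa encodes the precursor of atrial natriuretic peptide, a hormone that atrial muscle stores in granules and releases when stretched. The peptide is freed by the protease Corin, acts through the guanylyl cyclase receptor Npr1 on kidney and blood vessels, and is cleared by the receptor Npr3. Myl4 and Myl7 encode the essential and the regulatory myosin light chain of atrial muscle, where Myl3 and Myl2 serve in the ventricle. In mice a sheath of heart muscle with atrial features also runs along the pulmonary veins into the lung.

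Because the 3 genes are read here together, the stretch of 250 bases before each gene's start is shown, as listed by RefSeq for GRCm38.p6. The windows are chr4:148000472-148000721 on the plus strand for Nppa, chr11:104550413-104550662 on the plus strand for Myl4 and chr11:5898783-5899032 on the minus strand for Myl7, each written 5′ to 3′. Capitals mark the GATA motif (GATAA), the TATA box (TATAAA) and the CArG box, searched by name, all on both strands and without overlap among them.
Nppa: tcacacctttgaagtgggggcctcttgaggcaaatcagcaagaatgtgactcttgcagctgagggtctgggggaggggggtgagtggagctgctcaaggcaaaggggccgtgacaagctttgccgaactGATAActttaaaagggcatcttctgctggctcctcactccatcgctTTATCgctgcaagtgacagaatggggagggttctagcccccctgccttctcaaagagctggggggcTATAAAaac
Myl4: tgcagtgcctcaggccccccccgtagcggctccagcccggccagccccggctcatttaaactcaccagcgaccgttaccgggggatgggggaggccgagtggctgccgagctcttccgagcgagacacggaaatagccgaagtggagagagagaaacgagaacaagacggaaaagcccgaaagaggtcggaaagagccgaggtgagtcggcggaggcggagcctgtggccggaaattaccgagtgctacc
Myl7: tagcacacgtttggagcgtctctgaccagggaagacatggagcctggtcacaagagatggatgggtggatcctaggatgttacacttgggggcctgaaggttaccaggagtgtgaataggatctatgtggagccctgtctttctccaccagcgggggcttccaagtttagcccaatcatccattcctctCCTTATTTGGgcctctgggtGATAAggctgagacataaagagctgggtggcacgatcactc

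The Nppa window held the GATA motif at 121 to 117 and, on the opposite strand, at 75 to 71 bases before the start, and a TATA box at 9 to 4 bases before it. The Myl7 window held 1 GATA motif at 41 to 37 bases and 1 CArG box, the motif that serum response factor is known to bind, at 61 to 52 bases before the start. The Myl4 window held none of these motifs and was richer in G and C, at 63.6%, against 54.4% for Nppa and 52.8% for Myl7. Of all 32851 windows of that length, 22.6% held the GATA motif, 12.4% the TATA box and 1.47% the CArG box. A motif of NKX factors (AAGTG, either strand) stood in all 3 windows and in 40.7% of all windows. In Nppa 1 of its 2 copies, and in Myl7 its only copy, overlapped an E-box (CANNTG, in 66.2% of all windows). The T-box motif (GGTGTNA, in 8.61%) stood in Nppa alone of the 3, and the MEF2 box (in 2.92%) in none. These are matches of letters in 1 listed window per gene.

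In UCP air the atrial genes lay far below their control pool. Nppa had log2 ratios of -5.72 on array 1 and -5.91 on array 2. Both arrays gave nearly the same reading, although the challenged lung carried Cy5 on one and Cy3 on the other. The mean was -5.81 ± 0.14 (SD, n = 2), which is 56.2-fold lower in challenged lung, or 1.78% of the level in the pool. On array 1 this was the lowest value of the 19832 probes present, shared by 2 probes, and it stands for a scanner ratio of 0.013. Ratios on that array were stored to 3 decimals, so rounding alone spans -5.77 to -5.66 there. No probe brightness was used here, so it is not known whether the challenged lung's spot stood above background. The fold is therefore that of the deposited ratio.

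Myl4 lay at -2.77 and -2.71 on arrays 1 and 2 of UCP air, a mean of -2.74 ± 0.04 (SD, n = 2). Myl7 lay at -2.66 and -3.00, a mean of -2.83 ± 0.24 (SD, n = 2). Both light chains were thus 6.69-fold and 7.11-fold lower in challenged lung than in the pool, and their values overlapped. Nppa lay below Myl4 by 2.94 on array 1 and 3.20 on array 2, on the log2 scale, far more than the 0.11 and 0.29 between the light chains.

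In particle-free air the 3 genes lay near or moderately below 0. Nppa had 0.38 on array 1 and -0.17 on array 2, a mean of 0.11 ± 0.39 (SD, n = 2), so its arrays fell on both sides of 0. Myl7 had -0.57 and -0.71, a mean of -0.64 ± 0.10, and Myl4 had -0.65 and -0.88, a mean of -0.76 ± 0.17 (SD, n = 2 each). The order of the 3 genes was turned round there, with Nppa above both light chains on each array, and the light chains not apart beyond their spread. Myl4 and Myl7 lay below 0 on all 4 arrays, which Nppa did not.

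**Figure D1:**
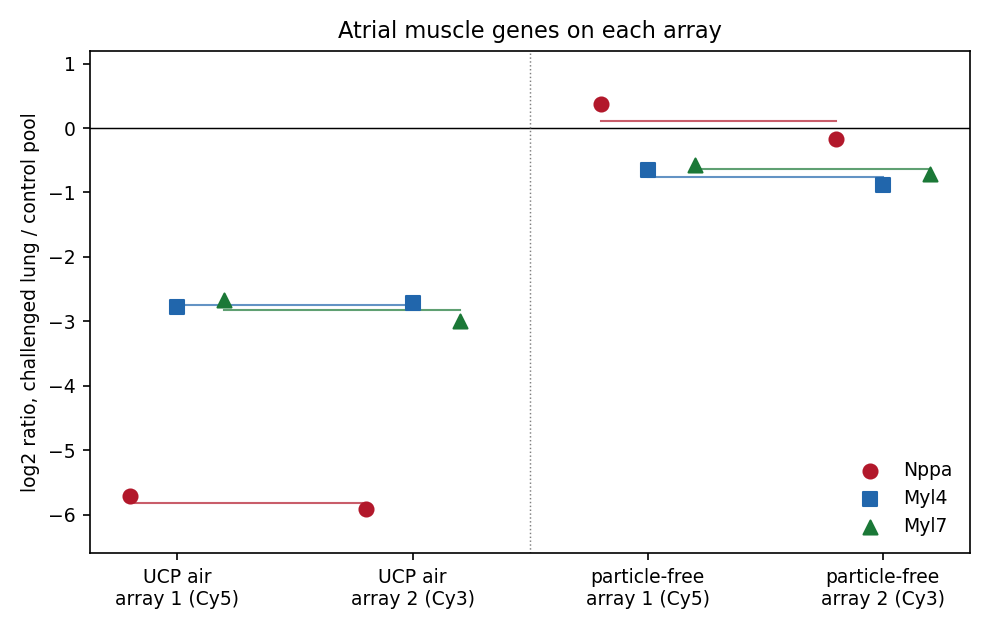
Log2 ratio of challenged lung over control pool (y axis) for Nppa, Myl4 and Myl7 on each array (x axis, with the dye of the challenged lung), points for arrays and lines for the mean of both arrays of an air. In UCP air Nppa sits at -5.72 and -5.91 and the light chains between -3.00 and -2.66, while in particle-free air all values sit between -0.88 and 0.38.

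Each gene had its values in UCP air below its values in particle-free air. The share of all named genes that part in this way was not counted. Since the genes were chosen on these ratios, nothing is read from that separation. The difference, UCP air minus particle-free air, was -5.92 for Nppa, -1.98 for Myl4 and -2.19 for Myl7 on the log2 scale. Taken between arrays of the same dye orientation it was -6.09 and -5.74 for Nppa, -2.13 and -1.83 for Myl4, and -2.09 and -2.29 for Myl7. The airs used separate control pools, so challenged lungs and pools both differ between them. In whole-lung RNA, fewer cells of a type and less RNA per cell cannot be told apart.

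All 3 genes were at least 1.5-fold lower on both arrays of UCP air, where 3.82% of 9153 named genes were. In particle-free air Myl4 alone of the 3 met that rule, where 3.58% of named genes did, and Myl7 missed it narrowly, by its -0.57 on array 1. Since these ratios chose the genes, nothing is read from those counts. Ranked by the less extreme of the 2 arrays of UCP air, Nppa was the lowest of the 9153 genes, Myl4 stood 6th and Myl7 7th from the bottom. Ranked by the mean of both arrays, the measure used elsewhere here, Nppa stood 13th, Myl7 32nd and Myl4 35th from the bottom. A capped ratio on 1 array can set such a mean. Arhgef18, at rank 5 by the mean, had -0.12 on array 1 and a capped -16.33 on array 2. In the first ranking, Supt20, Srsf4, Gpd1 and Krt5 came between Nppa and the light chains, and Tnnt2 came just above them. In particle-free air the ranking by the less extreme array put Myl4 at 263, Myl7 at 355 and Nppa at 5765.

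**Figure D2:**
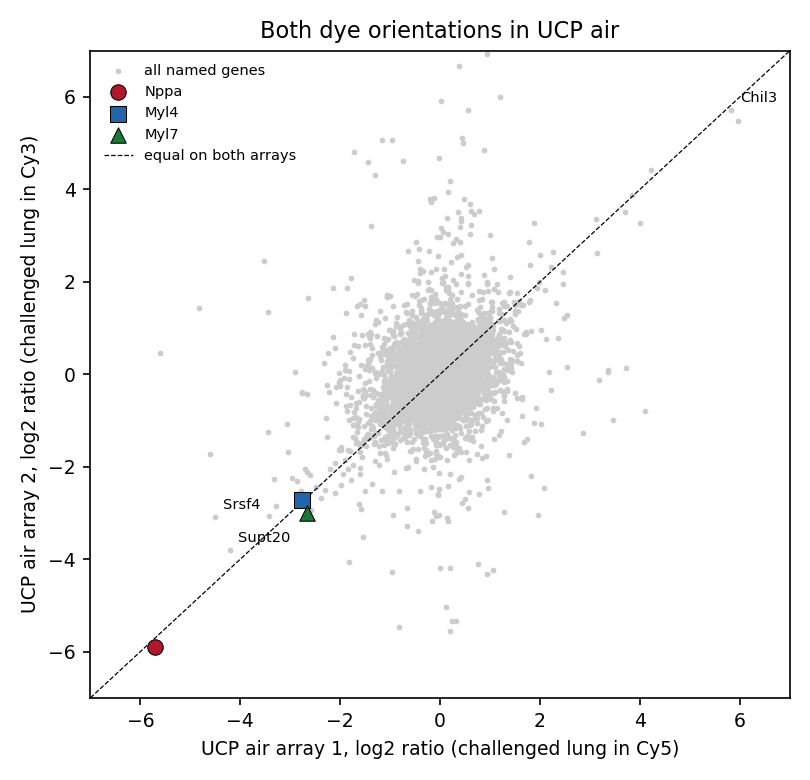
Log2 ratio on array 1 (x axis, challenged lung in Cy5) against array 2 (y axis, challenged lung in Cy3) of UCP air for each named gene, with Nppa, Myl4 and Myl7 marked and the line of equal values dashed. Nppa at -5.72 and -5.91 lies at the lower left, apart from all other genes near the line, and 31 genes with a value beyond 7 on either side lie outside the axes.

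Of the hormone's own pathway, 9 of 18 listed genes were measured on all arrays, and they did not share the low ratios of Nppa. Their median was -0.08 in UCP air and -0.04 in particle-free air, beside 0.00 and -0.02 over all named genes. Nppb, Nppc, Npr1, Npr3 and Corin were not analysed here. Prkg2, a kinase activated by cyclic GMP, lay at -3.44 and -1.26 in UCP air, against -0.43 and -1.08 in particle-free air, and was the only one of the 9 at least 1.5-fold lower on both arrays of UCP air, where 3.82% of named genes were. Npr2, the guanylyl cyclase receptor for C-type natriuretic peptide, lay at 0.05 and -0.35 in UCP air, against 0.73 and -0.72 in particle-free air. The peptide-cleaving enzymes Mme (neprilysin) and Ide averaged 0.15 ± 0.13 and -0.31 ± 0.18 in UCP air, against -0.04 ± 0.36 and -0.22 ± 0.10 in particle-free air (SD, n = 2 each). Pde2a, a phosphodiesterase stimulated by cyclic GMP, averaged 0.10 ± 0.01 in UCP air and 0.10 ± 0.17 in particle-free air (SD, n = 2 each). Pde5a, which breaks down cyclic GMP, had 1.12 and 0.04 in UCP air, against 2.92 and -2.38 in particle-free air, so its arrays did not agree in sign there. No gene of the pathway passed limma by gene at an adjusted p under 0.05 in either air, and 1 of the 9 (Prkg2) was lower at an unadjusted p under 0.05 in UCP air, where 4.93% of all genes were.

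Only 4 of the 13 other genes listed as typical of atria were measured on all arrays. Kcnk3, an acid-sensitive potassium channel that lung vessels also use, lay at -1.38 and -0.90 in UCP air, against -0.18 and -1.63 in particle-free air. The ranges of the 2 airs overlapped. Kcnj3, a subunit of the muscarinic potassium channel, lay at -0.39 and 0.54 in UCP air, against 0.84 and 0.04 in particle-free air. Nr2f1, a nuclear receptor of the atrial programme, averaged -0.16 ± 0.35 in UCP air and -0.42 ± 0.30 in particle-free air (SD, n = 2 each). Pam, an enzyme abundant in atrial granules that amidates peptides in many tissues, averaged -0.07 ± 0.10 in UCP air and -0.50 ± 0.40 in particle-free air (SD, n = 2 each). Over these 4 genes the median was -0.11 in UCP air and -0.46 in particle-free air, and none passed limma in either air. Sln, Gja5, Kcna5, Bmp10 and Tbx5, which are more restricted to atria, were not analysed here.

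Among the other myosin light chains and their kinases, 9 of 13 listed genes were measured. Myl2, the ventricular regulatory chain and counterpart of Myl7, had -1.90 and -1.86 in UCP air, against 2.03 and 1.501 in particle-free air. Myl3, the ventricular and slow skeletal essential chain and counterpart of Myl4, had -1.52 and -1.12 in UCP air, against 0.29 and 1.07 in particle-free air. Both of these ventricular chains lay below 0 in UCP air and above 0 in particle-free air, while the atrial chains lay below 0 in both airs. Over all named genes, 3.37% lay below 0 on both arrays of UCP air and above 0 on both of particle-free air, and 4.34% lay the other way round. Myl7 lay below Myl2 on every array, by 0.76 and 1.14 in UCP air and by 2.60 and 2.21 in particle-free air. The difference between the airs was -3.65 for Myl2, larger than the -2.19 of Myl7, and -2.00 for Myl3, close to the -1.98 of Myl4. Myl1, a fast skeletal chain, lay at -0.45 and -0.70 in UCP air, against -1.27 and -0.85 in particle-free air. Chains of smooth muscle and other cells stood near 0, with Myl6 at -0.25 ± 0.41 and Myl12a at 0.03 ± 0.09 in UCP air, against 0.12 ± 0.23 and -0.03 ± 0.13 in particle-free air (SD, n = 2 each). Of these 9 genes 2 were at least 1.5-fold lower on both arrays of UCP air (Myl2 and Myl3), where 3.82% of named genes were. In particle-free air 1 was that much lower (Myl1) and 1 that much higher (Myl2). Of all named genes, 3.58% were at least 1.5-fold lower there and 3.73% at least 1.5-fold higher. None passed limma, with a smallest adjusted p of 0.149 in UCP air and 0.192 in particle-free air.

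The change of side was not shared by all ventricular muscle genes. Of 6 listed, 4 were measured, with medians of -1.57 in UCP air and 0.25 in particle-free air. Myh7, the slow and ventricular myosin heavy chain, had -1.98 and -1.64 in UCP air, against -0.57 and -0.99 in particle-free air, and so lay below 0 on all 4 arrays like the atrial chains. Kcnip2, a subunit of a potassium channel of ventricular muscle, averaged -0.11 ± 0.25 in UCP air and -0.18 ± 0.20 in particle-free air (SD, n = 2 each). Of the 4 genes 3 (Myl2, Myl3 and Myh7) were at least 1.5-fold lower on both arrays of UCP air, where 3.82% of named genes were, and 0 in particle-free air, where 3.58% were.

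Genes shared by atrial and ventricular muscle lay low in UCP air too. Of 32 listed genes 26 were measured, and 19 of them were at least 1.5-fold lower on both arrays of UCP air, against the 3.82% of all named genes. In that air 1 (Actn2) was at least 1.5-fold higher, where 2.93% of named genes were. The 19 were counted on the mean of a gene's probes, and they include Csrp3, Fabp3, Ldb3 and Cox7a1, whose probes disagreed. The list was chosen with earlier results of these data known, so its counts are a description. In particle-free air 1 of the 26 was at least 1.5-fold lower (Cox8b) and 0 were higher, where 3.58% and 3.73% of named genes were. The medians were -1.07 in UCP air and -0.02 in particle-free air. Tnnt2, the cardiac troponin T, had -2.58 and -2.94 in UCP air, against 0.04 and -0.06 in particle-free air. Tnni3, the cardiac troponin I, had -2.86 and -2.31 in UCP air, against -0.09 and 0.22 in particle-free air. The oxygen store Mb averaged -2.39 ± 0.39 in UCP air and 0.21 ± 0.23 in particle-free air (SD, n = 2 each). Ankrd1, a stress-responsive ankyrin repeat protein of the sarcomere, lay at -2.38 and -2.67 in UCP air, against -0.52 and -0.60 in particle-free air. Its 2 probes differed in particle-free air, with means of -1.05 and -0.07. The oxidase subunit Cox8b, which brown fat also makes, averaged -2.34 ± 0.33 in UCP air and -0.99 ± 0.27 in particle-free air (SD, n = 2 each). Actc1, the cardiac actin, had -0.32 and 0.97 in UCP air, against 0.37 and -0.33 in particle-free air, and so did not share the low ratios. Actn2, the sarcomeric alpha-actinin, lay above 0 on every array, at 2.49 and 1.21 in UCP air and 0.41 and 2.37 in particle-free air.

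On the arrays of UCP air no shared heart muscle gene lay as low as Nppa. Nppa was below Tnnt2 by 3.13 and 2.97 and below Tnni3 by 2.85 and 3.60 on arrays 1 and 2, on the log2 scale. Myl4 and Myl7 averaged -2.74 and -2.83 there, beside a lowest shared heart muscle mean of -2.76 (Tnnt2). By gene, limma called 0 of the 26 shared heart muscle genes in UCP air (smallest adjusted p = 0.0702), where 0.0219% of all genes were called in either direction. At an unadjusted p under 0.05, 20 of the 26 were lower, where 4.93% of all genes were. In particle-free air it called 0 (smallest adjusted p = 0.357), where 0.0109% of all genes were called, and 4 were lower at an unadjusted p under 0.05, where 5.70% of all genes were. For UCP air minus particle-free air it called 0 (smallest adjusted p = 0.379), where 0% of all genes were called. There, 13 of the 26 were lower at an unadjusted p under 0.05, where 2.15% of all genes were. The list was chosen with earlier results of these data known, so these counts describe it and do not test it.

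**Figure D3:**
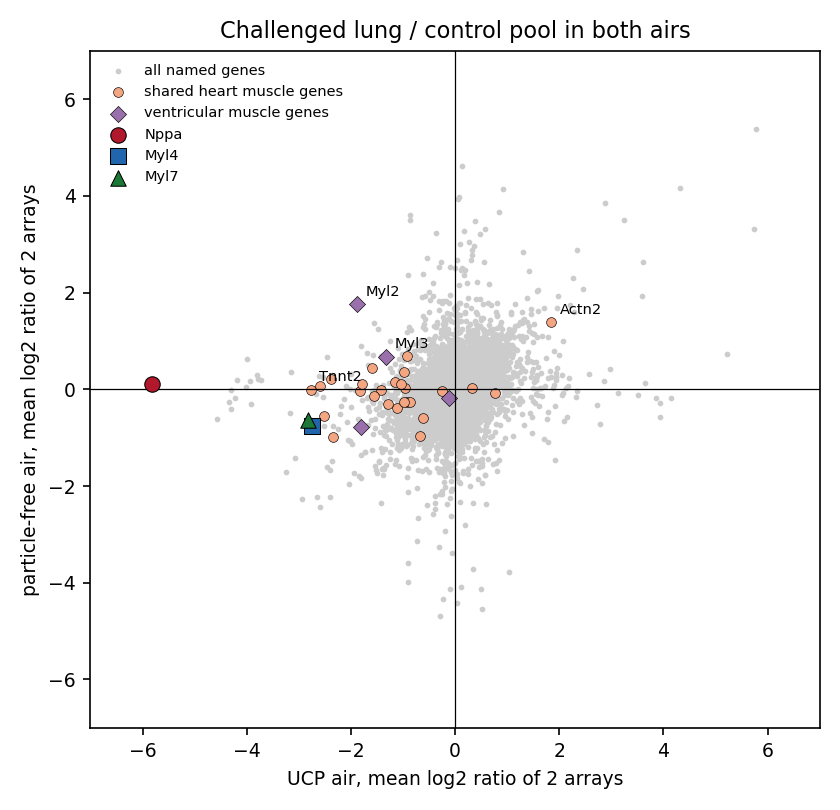
Mean log2 ratio of 2 arrays in UCP air (x axis) against particle-free air (y axis) for all named genes (grey), shared heart muscle genes (orange), ventricular muscle genes (purple) and the 3 atrial genes. Nppa lies at -5.81 and 0.11, Myl4 and Myl7 lie at the left end of the heart muscle genes and below 0 in both airs, and Myl2 lies at -1.88 in UCP air and 1.76 in particle-free air. A total of 29 genes with a mean beyond 7 on either side lie outside the axes.

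Genes listed for fat, thymus and fast skeletal muscle, tissues that can lie beside the lung, were read on the same arrays. Genes listed for smooth muscle, epithelium and endothelium, which the lung itself holds, were read too. Over all named genes, 3.82% were at least 1.5-fold lower on both arrays of UCP air and 3.58% on both arrays of particle-free air. Of 9 measured fat cell genes, 7 were that much lower in UCP air and 7 in particle-free air, with medians of -2.01 and -1.04. Of 6 measured thymus genes, 5 were that much lower in UCP air and 1 in particle-free air, with medians of -1.43 and -0.24. Of 10 measured fast skeletal muscle genes, 4 were that much lower in UCP air and 5 in particle-free air, with medians of -0.73 and -1.06. Myh4, a fast skeletal myosin, lay at -1.72 and -1.10 in UCP air, against -1.30 and -1.98 in particle-free air. The 7 smooth muscle genes had medians of -0.30 in UCP air and -0.15 in particle-free air, with Myh11 the only one lower by this rule in either air. The 7 alveolar and airway epithelium genes had a median of 0.01 in both airs, but members lay on both sides of it. Sftpb, a surfactant protein, averaged -1.06 ± 0.05 in UCP air and -0.70 ± 0.25 in particle-free air, and Cyp2f2, an enzyme of club cells, averaged -1.34 ± 0.42 and -1.24 ± 0.52 (SD, n = 2 each). Both were at least 1.5-fold lower on both arrays of UCP air, and Cyp2f2 was in particle-free air. Pdpn, a surface protein of flat alveolar cells, was at least 1.5-fold higher on both arrays of each air, where 2.93% of named genes were in UCP air and 3.73% in particle-free air. The 5 endothelium genes had medians of 0.10 in UCP air and 0.25 in particle-free air. The fat cell and thymus lists thus had lower medians in UCP air, as the atrial genes did. Whether the listed genes mark those tissues alone was not checked, and the part of those tissues in the atrial ratios was not tested.

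Of 14 listed heart transcription factors, 6 were measured, with medians of -0.08 in UCP air and -0.05 in particle-free air. Smyd1, a muscle methyltransferase, lay at -1.28 and -0.94 in UCP air, against -0.44 and -0.72 in particle-free air. Srf, the factor that binds the CArG box, averaged 0.44 ± 0.01 in UCP air and -0.06 ± 0.39 in particle-free air (SD, n = 2 each). Mef2c averaged -0.29 ± 0.02 in UCP air, against -0.04 ± 0.09 in particle-free air (SD, n = 2 each). Gata6 had -1.53 and 1.60 in UCP air, against -1.07 and 2.85 in particle-free air, so its sign followed the dye. Gata4, Nkx2-5, Hand2 and Tbx20 were not analysed here, and 0 of the 6 passed limma in either air.

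**Figure D4:**
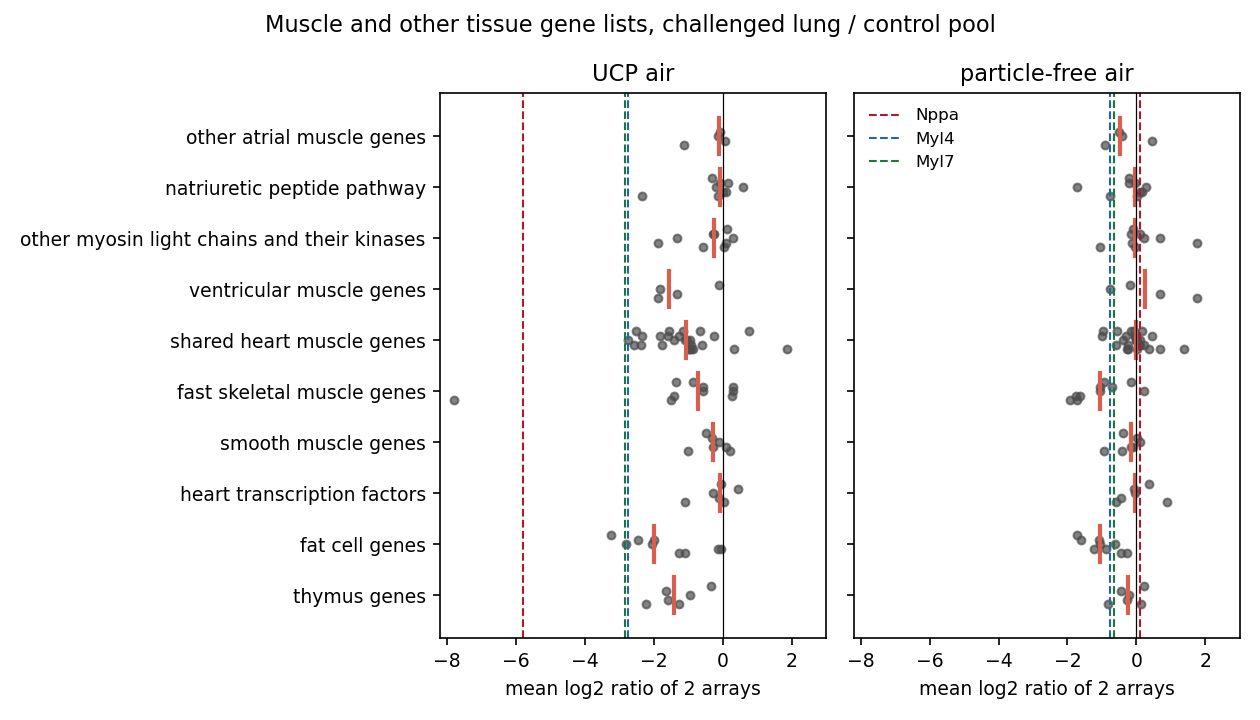
Mean log2 ratio of 2 arrays (x axis) for each measured gene of 10 lists (points, red bar at the list's median), in UCP air (left) and particle-free air (right), with dashed lines at Nppa, Myl4 and Myl7. Shared heart muscle genes reach down to the light chains' lines in UCP air and lie around 0 in particle-free air, and the point at -7.81 among fast skeletal muscle genes is Tnni2, with 1 capped ratio.

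The genes with the profile most like each of the 3 were taken by the root mean square difference of log2 ratios over the 4 arrays, with no test. Myl4 and Myl7 were nearest to one another, at 0.18. The nearest other gene to both was Ankrd1, at 0.25 from Myl4 and 0.23 from Myl7, followed by Cox8b at 0.38 and 0.44. Next for Myl4 came Ucp1, the uncoupling protein of brown fat (a gene, not the UCP of the air), at 0.38, Itih2, a plasma inhibitor chain made in liver, at 0.53, and the basal keratin Krt5 at 0.54. For Myl7 Tnnt2 came next at 0.45, then Ucp1 at 0.50 and Itih2 at 0.52. Ucp1 had -3.33 and -2.27 in UCP air, against -0.60 and -0.62 in particle-free air. Nppa had no close neighbour: Supt20, a subunit of a transcriptional coactivator complex, was nearest at 1.30, with -4.21 and -3.81 in UCP air, against 0.32 and -0.23 in particle-free air. Srsf4, a splicing factor, followed at 1.54, Tnnt2 at 2.16, Krt5 at 2.23 and Cwc27, a spliceosome protein, at 2.24, beside 2.18 for Myl7 and 2.26 for Myl4.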

How the data were processed

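RNA of challenged lung was hybridised against a pool from 6 control animals on 4 dual-colour arrays, after indirect labelling of 20 µg of total RNA with Cy3 or Cy5, per the labels' protocols. The authors deposited log2 ratios of both channels; for the scanner, image software and normalization, the method is not given in the sources used here. Each array had a plateau at log2 of a ratio capped at 100000 plus an array constant of 0.55, 0.28, -0.05 and 0.56 (UCP air arrays 1 and 2, particle-free air arrays 1 and 2). With it removed, all ratios under 0.3 (707, 302, 381 and 238) were whole steps of a 3-decimal ratio within 0.0011 on the log2 scale. The plateau was read at the highest value on Cy5 arrays and the lowest on Cy3 arrays, so its sign follows the dye label. At that end 20, 58, 25 and 44 probes shared the value, in the same order of arrays. With these ties and whole steps, all 4 arrays were taken to run the same way. The opposite end was not searched for a plateau. The direction shared by all 4 was set from the convention of Cy5 over Cy3 and from 7 genes of allergic lung. Array medians lay between -0.07 and 0.02. Correlations between arrays over all complete probes were 0.07 to 0.18. The arrays of UCP air correlated at 0.161 and those of particle-free air at 0.069, beside 0.072 to 0.178 between arrays of different airs. Arrays of the same air were thus not more alike than arrays of different airs.

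Of 20205 probes, 13852 had 1 gene symbol and 6353 had none in the platform annotation, with symbols updated by Entrez identifier through RefSeq (GRCm38.p6). Values were used as deposited. Tests used limma 3.58.1 (R 4.3.3) with 1 coefficient per air on the 18160 probes complete on all arrays (2 residual and 2.32 prior degrees of freedom), two-sided, with Benjamini-Hochberg adjustment over all probes and a threshold of 0.05. Gene lists used the mean of a gene's probes (9153 genes) in the same model, and were counted at 1.5-fold on both arrays of an air without a model. The fit was tested on simulated data. By probe, 0 were called in either air or in their difference, and 1 in the average of both airs. At an unadjusted p under 0.05 these were 1535 in UCP air, 1895 in particle-free air and 722 in the difference. Precision is limited by how few arrays there are. The 3 genes and the 13 lists were chosen with earlier results of these data known. Named were the 3 genes, up to 6 list genes each by p in UCP air, and the 5 nearest profiles of each gene. Other genes (Actn2, Actc1, Myl12a and those of the closing section) were named after their values were seen.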

Additional observations from a re-analysis of the deposited data

Results flagged for a closer look

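In 12 of 100 measured genes (the 3 atrial genes and the listed genes other than those used for the overall sign), both arrays of UCP air lay on one side of 0 and both arrays of particle-free air on the other. Of the 100 genes, 9 had UCP air below 0 and particle-free air above it, beside 3.37% of all named genes. The other way round were 3 of the 100, beside 4.34% of all named genes. Of the 9, 6 are heart muscle genes. Their differences, UCP air minus particle-free air on the log2 scale, were -3.65 and -2.00 for the light chains Myl2 and Myl3. The difference was -2.59 for Mb, the oxygen store of heart and slow skeletal muscle. It was -2.04 for Tnnc1, the troponin C of heart and slow skeletal muscle. For Mybpc3, the cardiac myosin-binding protein C, it was -1.61, and for Fabp3, a fatty acid carrier, -1.33. Mb had -2.66 and -2.11 in UCP air, against 0.04 and 0.37 in particle-free air. Tnnc1 had -1.31 and -1.87 in UCP air, against 0.75 and 0.15 in particle-free air. Mybpc3 had -1.22 and -0.62 in UCP air, against 0.92 and 0.47 in particle-free air. The other 3 had smaller differences, of -0.77 for Eng and -0.63 for Emcn, both endothelial surface proteins, and -0.22 for Smtn, a smooth muscle protein. For Eng and Smtn the change of side came from the mean of 2 probes each. No single probe of either gene showed it.

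The opposite change of side was seen in Tnnc2, the fast skeletal troponin C, with 0.40 and 0.10 in UCP air, against -1.85 and -1.67 in particle-free air, a difference of 2.01. Ckm, the muscle creatine kinase, had 0.30 and 0.31 in UCP air, against -0.58 and -0.81 in particle-free air, a difference of 1.003, and Synpo2, an actin-binding protein of muscle, had a difference of 0.62. For UCP air minus particle-free air limma by gene called 0 of 9153 genes, and 361 had an unadjusted p under 0.05. Nppa, Myl4 and Myl7 showed no such change of side.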

How the results depend on the processing

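The ratios of Nppa, Myl4 and Myl7 kept their direction in UCP air under each setting tried. Since the genes were chosen on these low ratios, nothing is read from that. Centring and scaling the arrays to the same spread moved the ratios, to -6.42, -3.03 and -3.11 in UCP air. Centring alone did not move the ratios beyond their spread. Single arrays ranged from -5.91 to -5.72 for Nppa, from -2.77 to -2.71 for Myl4 and from -3.00 to -2.66 for Myl7 in UCP air, against -0.17 to 0.38, -0.88 to -0.65 and -0.71 to -0.57 in particle-free air. Each gene has 1 probe, so a setting by probe could not be run. At 2-fold the shared heart muscle genes lower on both arrays were 11 in UCP air and 0 in particle-free air, and light chains and kinases were 0 in particle-free air. On single arrays the shared heart muscle genes at least 1.5-fold lower were 20 to 21 in UCP air and 3 in particle-free air, with either array. The share of all named genes was not counted at 2-fold or on single arrays. The 3.82% in UCP air and 3.58% in particle-free air hold only for 1.5-fold on both arrays.

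Counts of called probes depended on the setting. With probes averaged per gene there were 2 in UCP air, 1 in particle-free air and 9 for the average of both airs, against 0, 0 and 1 by probe. Keeping probes with missing values gave 10 in particle-free air. For the average of both airs the count was 2 with arrays centred and scaled, 5 with capped ratios left out (chosen after seeing the data), 0 with the arrays of an air averaged, and 0 with the replicate number as a block. Leaving out 1 array in turn gave 0 to 36 in UCP air, 0 to 24 in particle-free air, 0 to 34 for the average and 0 to 32 for the difference. In these the air left with 1 array is assumed to vary like the other. The replicate block called 0 in UCP air, in particle-free air and in their difference too. Deviations of same-numbered arrays correlated at 0.054 over 18160 probes, so the numbers, which are also the dye orientations, were not taken as pairs.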

Other observations

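The arrays of UCP air disagreed for Tnni2, the fast skeletal troponin I, which had 0.70 and a capped ratio of -16.33 there, against -1.85 and -2.02 in particle-free air. This gene was picked after its values were seen.

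Probes of some heart muscle genes disagreed. Csrp3, a muscle LIM protein, had 1 probe with a mean of -2.60 in UCP air and -0.82 in particle-free air, and another with 0.39 and 0.07. Fabp3, a fatty acid carrier, had 1 probe with -1.98 in UCP air and 0.71 in particle-free air, and another with 0.03 and 0.01. Ldb3, a Z-disc protein, had means of -2.21, -0.49 and -0.09 on its 3 probes in UCP air, against -0.13, -0.52 and -0.13 in particle-free air. Nppa, Myl4 and Myl7 had 1 probe each, so probes cannot be compared for them.

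Of the listed heart genes with a missing value, Slc8a1, the sodium-calcium exchanger, had -0.97 and -0.34 in UCP air and no value in particle-free air. Nr2f2, an atrial nuclear receptor that vein endothelium also makes, had -0.74 and 0.27 in UCP air, against -1.04 on array 1 of particle-free air.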
